A study of Mus musculus with 6 samples.

Results

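The transcripts described here are those of 9 inflammatory genes, the cytokines Il1a, Il1b, Il6 and Tnf and the CXC chemokines Cxcl1, Cxcl2, Cxcl3, Cxcl9 and Cxcl10, among the 18193 genes measured on the arrays. All probe sets whose single annotated symbol was one of these names were taken, which gave 12 of 45037 probe sets. The genes were chosen by the differences between the double knockout and control arrays that are given below, so those differences are a description, carry no test and support no statement of their own. Expression was measured on Affymetrix mouse arrays, with 3 double knockout (dKO) arrays and 3 control arrays. The dKO mice carried the MxCre transgene and floxed alleles of c-Myc and of N-Myc, which encode transcription factors of cell growth. The control mice carried the same floxed alleles without MxCre. MxCre is switched on by interferon, and its deletion of the floxed alleles is not limited to 1 cell type. All mice, of 8 weeks and on a mixed background, received 2 daily injections of pI-pC, a double-stranded RNA mimic that induces interferon, and were taken 3 days after the last one. The bone marrow cells were sorted as lineage-negative, Sca1-positive, CD150-positive and CD48-positive, which the study calls committed progenitors. Each dKO array holds a pool of 3 mice and each control array a pool of 2 mice. The tissue label of control 1 names LT-HSCs (long-term haematopoietic stem cells), whereas its gate is that of the other arrays. Since only the dKO mice carried MxCre, an effect of the transgene cannot be told apart from the loss of both genes.

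IL-1α and IL-1β act through the IL-1 receptor, IL-6 through its receptor chain and the shared subunit gp130, and TNF through its receptors, and all of them alert tissue and immune cells to infection or injury. CXCL1, CXCL2 and CXCL3 draw neutrophils through CXCR2, whereas CXCL9 and CXCL10 draw activated T and NK cells through CXCR3 and are known as interferon-induced. Many of these genes are induced by the transcription factor NF-κB, their mRNAs are short-lived, and in bone marrow the encoded proteins are known to act on stem and progenitor cells as well as on mature myeloid cells.

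The promoters are shown because several of these genes differed together between the groups. RefSeq promoters of assembly GRCm38.p6 were found for all 9 genes and searched over the 250 bases before the start for the NF-κB consensus on both strands. It was present in 5 of the 9, namely Il6, Cxcl1, Cxcl2, Cxcl3 and Cxcl10, against 7.25% of all 32851 promoters of that length. The 160 bases before the start of those 5 genes are printed 5′ to 3′ in the direction of the gene, with the letters of the NF-κB matches in capitals.
Il6 (chr5:30012954-30013113, plus strand): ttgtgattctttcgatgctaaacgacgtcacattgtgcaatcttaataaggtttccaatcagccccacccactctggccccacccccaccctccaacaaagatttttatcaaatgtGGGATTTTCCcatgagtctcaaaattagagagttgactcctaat
Cxcl1 (chr5:90891085-90891244, plus strand): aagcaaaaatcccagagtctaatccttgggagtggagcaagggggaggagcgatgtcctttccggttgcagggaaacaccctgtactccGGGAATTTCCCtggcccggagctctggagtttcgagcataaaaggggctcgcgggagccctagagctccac
Cxcl2 (chr5:90903739-90903898, plus strand): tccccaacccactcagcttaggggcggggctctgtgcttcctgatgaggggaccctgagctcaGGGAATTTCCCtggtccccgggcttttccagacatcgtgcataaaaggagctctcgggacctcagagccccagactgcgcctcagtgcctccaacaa
Cxcl3 (chr5:90785941-90786100, plus strand): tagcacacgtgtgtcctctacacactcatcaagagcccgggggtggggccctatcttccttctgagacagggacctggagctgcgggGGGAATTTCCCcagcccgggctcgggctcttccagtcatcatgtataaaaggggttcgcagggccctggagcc
Cxcl10 (chr5:92348890-92349049, minus strand): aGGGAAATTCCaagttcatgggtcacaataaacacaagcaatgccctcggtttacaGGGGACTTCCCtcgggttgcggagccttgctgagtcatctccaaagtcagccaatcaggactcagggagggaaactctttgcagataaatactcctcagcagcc
The capitals of Cxcl1, Cxcl2 and Cxcl3 are the same letters, at −71 to −61, −97 to −87 and −73 to −63 from the start, and in each a match on the plus strand overlaps one on the minus strand. Over these 160 bases, aligned with gaps, Cxcl1 and Cxcl3 were identical in 59.7% of columns, Cxcl1 and Cxcl2 in 56.9% and Cxcl2 and Cxcl3 in 56.6%, which were the highest values among all pairs of the 9 genes. The Il6 match stood at −44 to −35, and Cxcl10 had matches at −159 to −150 and at −104 to −94, the second made of overlapping matches. The AP-1 motif TGANTCA, searched on both strands, was found in Il1a, Il6 and Cxcl10, against 6.75% of all promoters. The core of the interferon response element, searched on both strands, was found only in Cxcl10 among the 9 promoters, at −213 to −204, against 2.98% of all promoters. The E-box CACGTG, a sequence that Myc proteins are known to bind and that reads the same on both strands, was found only in Cxcl3 among the 9, at −155 to −150, against 6.02% of all promoters. TATAAA, searched on the gene's own strand, was found in Il1a, Il1b, Cxcl3, Cxcl9 and Tnf, against 7.59% of all promoters. In Il1a, Il1b, Cxcl3 and Tnf it lay between −32 and −24, but in Cxcl9 at −195 to −190. These are matches of letters, and a promoter without one has only been shown to lack those letters in this window.

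Values are log2 expression levels as the authors deposited them, with array medians between 5.90 and 5.94 and lower quartiles between 4.23 and 4.47. Differences are dKO minus control with the standard error (SE) of the limma fit over all probe sets, and means carry the SD over 3 arrays. Levels of different probe sets are not compared, since probes differ in how strongly they bind. RMA values near the lower end tend to be compressed and lie close to background, so folds of dim probe sets are uncertain and may be understated. How far this holds was not measured here. Myc stood at 7.77 ± 0.29 on the dKO arrays and 10.74 ± 0.24 on the control arrays (SD, n = 3 each) and fell by 2.97 ± 0.21 (SE; limma, adjusted p = 0.00014), while the brightest Mycn probe set differed by -0.83 ± 0.27 (SE; limma, adjusted p = 0.133). Mycn depended on the probe set and the setting, at -1.92 over the mean of its probe sets (adjusted p = 0.000698), -1.14 without dKO 3 (0.0161) and -1.05 with array weights (0.0169). The gate genes Slamf1 (CD150) and Cd48 and the progenitor genes Kit, Ptprc and Cd34 were all measured, and none passed the limma test. Of these, 1 had an unadjusted p under 0.05, as did 3318 of all 18193 genes. Ly6a, which encodes Sca1, was not used here. Xist, measured by the probe set 1436936_s_at, was at 11.32 in dKO 1 and 10.57 in control 1, against 4.44 and 5.03 on the other dKO arrays and 5.33 and 4.78 on the other control arrays, so each member is also given without dKO 1 and control 1.

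For 10 of the 12 probe sets the lowest dKO array was above the highest control array, as it was for every probe set of 7 of the 9 genes. Over all probe sets on the arrays this was so for 10.7%. Because the members were selected on this contrast, nothing is read from that count. The median difference over the 12 probe sets was 1.27, beside 0.03 over all probe sets, and 5 of them differed by at least 4-fold. In cells sorted in bulk, fewer cells of a type and less RNA per cell cannot be told apart.

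**Figure D1:**
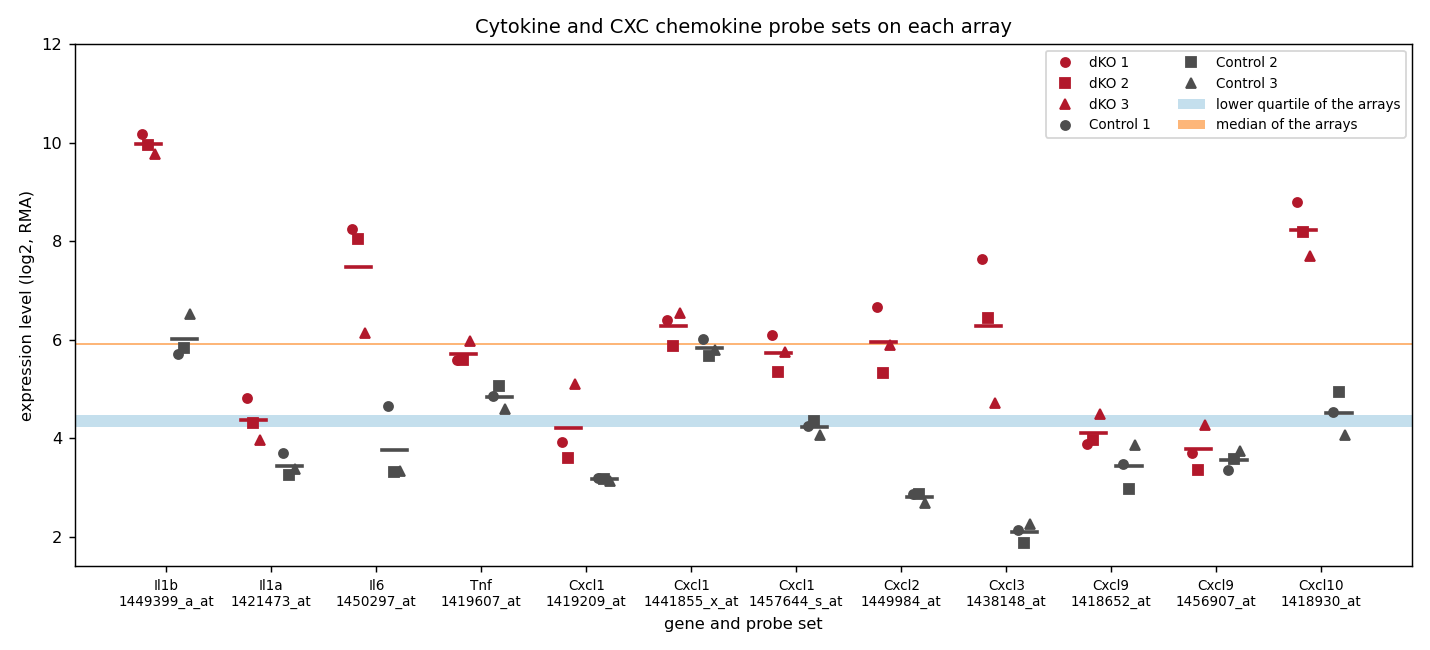
Log2 expression level (y axis) of the 12 probe sets of the 9 genes (x axis) on each dKO array (red, left of each pair) and each control array (grey, right), with a bar at each group's mean. The blue band spans the arrays' lower quartiles and the orange band their medians. Il1b, Il6 and Cxcl10 are above the median on all dKO arrays, and no probe set is above it on all control arrays.

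Il1b encodes IL-1β, which is made as a precursor and released after cleavage by inflammasome caspases. Its probe set read 10.16, 9.96 and 9.76 on dKO arrays 1, 2 and 3, against 5.71, 5.83 and 6.52 on control arrays 1, 2 and 3. Every dKO array was far above every control array, and the dKO arrays were close to each other, with control 3 the highest of the controls. The means were 9.96 ± 0.20 in dKO and 6.02 ± 0.44 in control (SD, n = 3 each), a difference of 3.94 ± 0.25 (SE), or 15.4-fold. It was 3.79 to 4.19 without each array in turn and 3.69 without dKO 1 and control 1.

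Il1a encodes IL-1α, which is active as a precursor and is released by damaged cells. It read 4.81, 4.30 and 3.97 on the dKO arrays, against 3.70, 3.26 and 3.37 on the control arrays. The groups did not overlap, but dKO 3 was only slightly above control 1, and all control arrays lay under the lower quartile of their array. The means were 4.36 ± 0.43 in dKO and 3.44 ± 0.23 in control (SD, n = 3 each), a difference of 0.92 ± 0.25 (SE), or 1.89-fold. Il1a lies directly before Il1b in the RefSeq gene order on chromosome 2.

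Il6 encodes interleukin 6, which drives the acute phase response and acts on B and T cells and on haematopoietic progenitors. It read 8.25, 8.04 and 6.13 on the dKO arrays, against 4.65, 3.31 and 3.33 on the control arrays. The groups did not overlap, but dKO 3 was well below the other dKO arrays, and control 1 stood above the other controls. The means were 7.47 ± 1.16 in dKO and 3.77 ± 0.77 in control (SD, n = 3 each), a difference of 3.71 ± 0.57 (SE), or 13.0-fold. Without each array in turn the difference was 3.32 to 4.38, and without dKO 1 and control 1 it was 3.76.

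Tnf encodes tumour necrosis factor, which activates NF-κB and, in some settings, cell death. Its readings were 5.58, 5.58 and 5.97 on the dKO arrays and 4.85, 5.06 and 4.60 on the control arrays. The groups did not overlap, with dKO 3 the highest array and control 2 the highest control. The means were 5.71 ± 0.22 in dKO and 4.83 ± 0.23 in control (SD, n = 3 each), a difference of 0.88 ± 0.20 (SE), or 1.84-fold. Tnf was the only one of the 4 cytokines whose highest reading was on dKO 3 and not on dKO 1.

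Cxcl3, Cxcl1 and Cxcl2 lie close together on chromosome 5 in that order, with Cxcl15 between Cxcl3 and Cxcl1. Cxcl3 read 7.64, 6.44 and 4.72 on the dKO arrays, against 2.14, 1.88 and 2.26 on the control arrays. The control arrays were at the bottom of the arrays' range and close together, whereas the dKO arrays were spread widely, from dKO 1 at the top to dKO 3. The means were 6.27 ± 1.47 in dKO and 2.09 ± 0.20 in control (SD, n = 3 each), a difference of 4.18 ± 0.60 (SE), or 18.1-fold. It was 3.49 to 4.95 without each array in turn and 3.51 without dKO 1 and control 1.

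Cxcl2, known in mouse as MIP-2 and a ligand of CXCR2, read 6.66, 5.32 and 5.90 on the dKO arrays, against 2.86, 2.88 and 2.70 on the control arrays. Again the groups were far apart, the control arrays were nearly equal and dKO 1 was the highest. The means were 5.96 ± 0.67 in dKO and 2.81 ± 0.10 in control (SD, n = 3 each), a difference of 3.15 ± 0.31 (SE), or 8.87-fold. For both Cxcl2 and Cxcl3, all control arrays lay under the lower quartile and all dKO arrays above it.

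Cxcl1, known in mouse as KC and likewise a ligand of CXCR2, had 3 probe sets, and they differed in size. The probe set 1457644_s_at read 6.10, 5.34 and 5.74 on the dKO arrays, against 4.25, 4.35 and 4.07 on the control arrays, a difference of 1.50 ± 0.22 (SE), or 2.83-fold. The probe set 1419209_at read 3.93, 3.59 and 5.11 on the dKO arrays, against 3.19, 3.17 and 3.14 on the control arrays, a difference of 1.05 ± 0.35 (SE), or 2.07-fold. In both the groups did not overlap, and in the second 1 array, dKO 3, stood well above the others, so that the difference was 0.60 without it. In that second probe set all control arrays, dKO 1 and dKO 2 lay under the lower quartile of their array. The probe set with the highest mean, 1441855_x_at, read 6.39, 5.87 and 6.55 on the dKO arrays and 6.01, 5.67 and 5.79 on the control arrays. Here dKO 2 was below control 1, the groups overlapped, and the difference was 0.45 ± 0.22 (SE), or 1.36-fold. The mean over the 3 probe sets differed by 0.999. The suffix of 1441855_x_at marks probes that may match other sequences and that of 1457644_s_at probes shared by several transcripts, so the value of Cxcl1 depends on the probe set.

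Cxcl10, known as IP-10, had the largest difference of the CXCR3 ligands measured. It read 8.79, 8.18 and 7.70 on the dKO arrays, against 4.54, 4.94 and 4.06 on the control arrays. All dKO arrays were far above all control arrays, with dKO 1 the highest. The means were 8.22 ± 0.55 in dKO and 4.51 ± 0.44 in control (SD, n = 3 each), a difference of 3.71 ± 0.32 (SE), or 13.1-fold, and 3.43 without dKO 1 and control 1.

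Cxcl9, known as MIG, is induced mainly by interferon γ and lies near Cxcl10. The annotated span of Art3 runs from between them across Cxcl10. Its probe set 1418652_at read 3.87, 3.96 and 4.49 on the dKO arrays, against 3.47, 2.96 and 3.87 on the control arrays, a difference of 0.67 ± 0.27 (SE), or 1.59-fold. Here all control arrays, dKO 1 and dKO 2 lay under the lower quartile of their array. The lowest dKO array and the highest control array were 0.0062 apart, and they overlapped when the arrays were quantile-normalized again. The probe set 1456907_at read 3.71, 3.37 and 4.28 on the dKO arrays and 3.35, 3.57 and 3.75 on the control arrays, a difference of 0.23 ± 0.25 (SE). These groups overlapped, all of the readings were under the lower quartile of their array, and the difference was -0.02 without dKO 3. Beside the 3.71 of Cxcl10, the other ligand of CXCR3, the differences of Cxcl9 were small, and no test of that contrast is given because it would rest on the values that chose the genes.

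**Figure D2:**
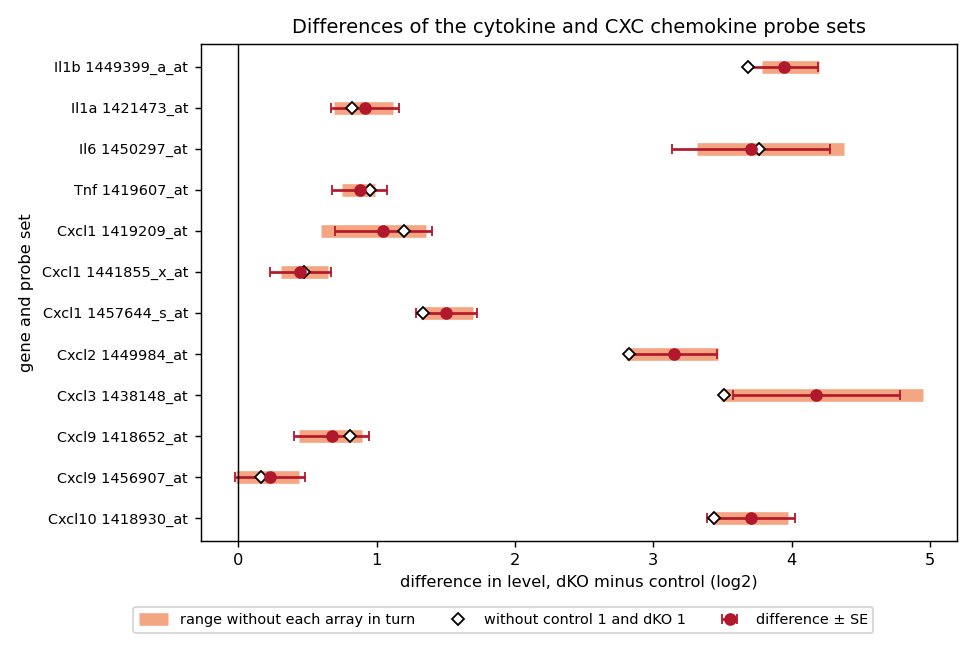
Difference in log2 level, dKO minus control (x axis), for each of the 12 probe sets (y axis). Points are differences with the SE of the limma fit, thick bars are the range when each array in turn is left out, and open diamonds leave out dKO 1 and control 1. Cxcl3, Il1b, Cxcl10, Il6 and Cxcl2 lie at 3.15 or above, the others at 1.50 or below, and only the Cxcl9 probe set 1456907_at reaches below 0.

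The members divided by size, with 5 genes at differences between 3.15 and 4.18 and the remaining 7 probe sets, of Il1a, Tnf, Cxcl1 and Cxcl9, between 0.23 and 1.50. Without dKO 1 and control 1 the difference was 2.82 for Cxcl2, 0.82 for Il1a and 0.95 for Tnf. It was then 1.33 for Cxcl1 1457644_s_at, 1.20 for 1419209_at and 0.48 for 1441855_x_at, and 0.81 for Cxcl9 1418652_at and 0.16 for 1456907_at. Among themselves the dKO arrays were more spread than the control arrays for 9 of the 12 probe sets, beside 64.5% of all probe sets. The median SD over the members was 0.44 on the dKO arrays and 0.21 on the control arrays, beside 0.27 on the dKO arrays and 0.19 on the control arrays over all probe sets. Of the dKO arrays, dKO 1 was the highest in 7 of the probe sets (Il1b, Il1a, Il6, Cxcl2, Cxcl3, Cxcl10 and 1 of Cxcl1), dKO 3 in 5 (Tnf, both of Cxcl9 and the others of Cxcl1) and dKO 2 in 0. Over all probe sets dKO 1 was the highest of the dKO arrays in 28.8%, dKO 2 in 29.2% and dKO 3 in 42.0%. Among the 174 probe sets on the arrays with no overlap and at least 4-fold higher values in dKO, dKO 1 was the highest in 58.0%. On dKO 3 the values over all probe sets had an SD of 2.17, against 2.26 to 2.31 on the other arrays of both groups.

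Genes of the same pathways that were not members were counted in the limma fit over all 18193 genes, at a Benjamini-Hochberg adjusted p of 0.05, where 3.12% of genes were higher in dKO and 2.85% lower, with a median difference of 0.05. In the list of the IL-1 family, its receptors and the inflammasome, 17 of 20 genes were measured, 3 were higher, 0 were lower and the median difference was 0.00, within -0.11 to 0.04 without each array in turn. None of the receptor components or antagonists of IL-1 itself passed the test. The signalling receptor Il1r1 differed by 0.63 ± 0.24 (SE; limma, adjusted p = 0.195, and 0.0413 without dKO 1) and the decoy receptor Il1r2 by 0.07 (adjusted p = 0.919). On every array except dKO 3, Il1r2 lay under the lower quartile of that array. The partner chain Il1rap differed by -0.14 on its probe set with the highest mean (limma, adjusted p = 0.84), but its 5 probe sets did not agree. One of them differed by 0.88, with 5.33, 5.23 and 5.40 on the dKO arrays against 3.66, 4.72 and 4.93 on the control arrays. The groups did not overlap there, while the remaining Il1rap probe sets differed by -0.14 to 0.19. The antagonist Il1rn, on its probe set with the highest mean, read 3.71, 5.54 and 3.95 on the dKO arrays and 5.83, 3.21 and 3.70 on the control arrays. There both groups had 1 array far above the others (limma, adjusted p = 0.947). Its other probe sets differed by 0.11 and -0.30, with dKO 2 at 4.16 and 3.16 and control 1 at 4.04 and 3.80. The 3 genes that were higher belong to the IL-18 branch and to the non-canonical inflammasome. Il18r1, a chain of the IL-18 receptor, differed by 1.60 ± 0.31 (SE; limma, adjusted p = 0.0172), and its call was lost without dKO 1, dKO 3 or control 2 (0.0512 to 0.0645). Il18bp, a secreted inhibitor of IL-18, differed by 1.17 ± 0.24 (limma, adjusted p = 0.0218, and 0.0701 to 0.0742 without dKO 1, dKO 2 or control 3). Casp4, which cleaves gasdermin D, differed by 1.24 ± 0.29 (limma, adjusted p = 0.035, and 0.112 to 0.136 without dKO 1, dKO 2, control 2 or control 3). Il18rap, the other chain of the IL-18 receptor, differed by 1.15 ± 0.29 (limma, adjusted p = 0.0529, and 0.0186 without dKO 3). The list's count of higher genes was 1 without dKO 1, dKO 2, control 2 or control 3, and its count of lower genes was 1 without dKO 2. At an unadjusted p under 0.05, limma had 5 higher and 2 lower. Over all 18193 genes, 1656 were higher and 1662 lower at that threshold, which is the background for the unadjusted counts of all lists.

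In the list of the IL-6 family, its receptors and signalling, 14 of 15 genes were measured, 4 were higher and 3 lower, with a median difference of 0.25, which was 0.43 without dKO 2. Both receptor chains of IL-6 were lower in dKO, while Il6 itself was one of the members with higher readings. Il6st, which encodes gp130, read 8.67, 8.13 and 8.52 on the dKO arrays, against 9.82, 10.31 and 9.99 on the control arrays, with no overlap. It fell by 1.60 ± 0.21 (SE), or 3.03-fold lower in dKO (limma, adjusted p = 0.00251), kept its call without each array in turn, and its 4 probe sets differed by -1.60 to -2.54. Il6ra, the chain that binds IL-6, read 5.61, 5.70 and 6.78 on the dKO arrays, against 7.36, 8.53 and 8.30 on the control arrays, again with no overlap. It fell by 2.04 ± 0.37 (SE; limma, adjusted p = 0.0133), its call was lost without dKO 2, control 2 or control 3 (0.0513 to 0.062), and its other probe set differed by -0.80.

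Osm, the gp130 cytokine oncostatin M, rose by 2.24 ± 0.20 (SE), or 4.74-fold (limma, adjusted p = 0.000455). Socs3, a feedback inhibitor of gp130 signalling, stood at 6.99 ± 0.50 in dKO and 4.57 ± 0.43 in control (SD, n = 3 each) and rose by 2.42 ± 0.29 (SE; limma, adjusted p = 0.00175), or by 1.34 on its probe set without an _x_at suffix. Both kept their calls without each array in turn. Of the other called genes of the list, named after their values were seen, Stat3, the transcription factor activated by IL-6, differed by 0.78 (limma, adjusted p = 0.028, and 0.0550 to 0.125 without dKO 1, dKO 2 or any of the control arrays), and by 0.41 over the mean of its probe sets (adjusted p = 0.152). The cytokine Lif differed by 1.05 (adjusted p = 0.042, and 0.0776 to 0.141 without dKO 1, dKO 3 or any of the control arrays) and its receptor Lifr by -0.89 (adjusted p = 0.0374, and 0.0579 to 0.149 without dKO 2, dKO 3 or any of the control arrays). The count of higher genes was 2 without dKO 1 or without any single control array, and the count of lower genes was 1 without dKO 2, control 2 or control 3.

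In the TNF list, 14 of 15 genes were measured, 2 were higher and 0 lower, and the median difference was 0.21, which was 0.03 without dKO 1, 0.35 without dKO 3 and -0.08 without dKO 1 and control 1 together. The receptors of TNF did not pass the test, with differences of -0.16 ± 0.32 (SE) for Tnfrsf1a (limma, adjusted p = 0.868) and -0.22 ± 0.17 for Tnfrsf1b (adjusted p = 0.59). Traf1, an adaptor of the TNF receptor family and a known NF-κB target, rose by 2.11 ± 0.24 (SE), or 4.32-fold (limma, adjusted p = 0.00138), and kept its call without each array in turn. Lta, which encodes lymphotoxin α, differed by 0.92 ± 0.20 (limma, adjusted p = 0.0304), and lost its call without dKO 2, dKO 3 or any single control array (0.0684 to 0.106), so that the count was 1 in those settings except without dKO 3, where Fadd passed. At an unadjusted p under 0.05, limma had 4 higher and 0 lower. Ltb, its partner lymphotoxin β, differed by 0.94 ± 0.29 (adjusted p = 0.103), and Fadd, an adaptor of the death receptors, by 0.66 ± 0.24 (adjusted p = 0.181, and 0.0327 without dKO 3).

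In the list of other CXC chemokines and CXC receptors, 16 of 17 genes were measured, 4 were higher and 0 lower, with a median difference of 0.25. The receptor of Cxcl1, Cxcl2 and Cxcl3 was among the higher genes. Cxcr2 read 7.77, 7.66 and 7.97 on the dKO arrays, against 6.55, 6.39 and 6.21 on the control arrays. The groups did not overlap, and Cxcr2 rose by 1.42 ± 0.18 (SE), or 2.67-fold (limma, adjusted p = 0.00202), and kept its call without each array in turn. Cxcr3, the receptor of Cxcl9 and Cxcl10, stood at 6.93 ± 0.13 in dKO and 6.20 ± 0.32 in control (SD, n = 3 each), a difference of 0.73 ± 0.20 (SE; limma, adjusted p = 0.0715, and 0.0396 when dim genes were filtered out). Cxcr6, the receptor of Cxcl16, differed by 1.07 ± 0.26 (limma, adjusted p = 0.0446, and 0.114 to 0.162 without dKO 2, dKO 3, control 2 or control 3). Ackr1, a receptor that takes up chemokines without signalling, differed by 0.19 (adjusted p = 0.734). At an unadjusted p under 0.05, the list had 7 higher and 2 lower genes by limma, and 1 lower gene passed the adjusted threshold without control 2.

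The genes beside the members on chromosome 5 did not all differ alike. Ppbp and Pf4, platelet chemokines that precede Cxcl3 in the gene order, were higher in dKO. Ppbp stood at 11.01 ± 0.37 in dKO and 6.14 ± 0.89 in control (SD, n = 3 each) and rose by 4.87 ± 0.40 (SE; limma, adjusted p = 0.000268), and Pf4 rose by 1.53 ± 0.17 (adjusted p = 0.00111). Cxcl5, a further CXCR2 ligand, read 5.12, 3.63 and 3.15 on the dKO arrays, against 2.86, 2.58 and 2.78 on the control arrays. All dKO arrays were above all control arrays but they were spread, and the difference of 1.22 ± 0.42 (SE) did not pass (limma, adjusted p = 0.152), but was 1.74 with array weights (0.0217). Cxcl15, between Cxcl3 and Cxcl1, differed by 0.03 (limma, adjusted p = 0.958), and the flanking genes Rassf6 by 0.63 (adjusted p = 0.163) and Mthfd2l by -0.34 (adjusted p = 0.455). All readings of Rassf6 were under the lower quartile of their array. Around Cxcl9 and Cxcl10, Sdad1 differed by 0.03 (adjusted p = 0.973) and Art3 by -0.08 (adjusted p = 0.912). Cxcl11 follows Cxcl10 and is annotated in RefSeq as a transcribed pseudogene. Its probe set with the highest mean read 6.42, 5.16 and 5.40 on the dKO arrays, against 4.84, 4.83 and 4.73 on the control arrays. The difference was 0.86 ± 0.30 (SE; limma, adjusted p = 0.154, and 0.0345 with array weights). Its other probe set differed by 0.20, with overlapping groups and all readings under the lower quartile of their array.

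**Figure D3:**
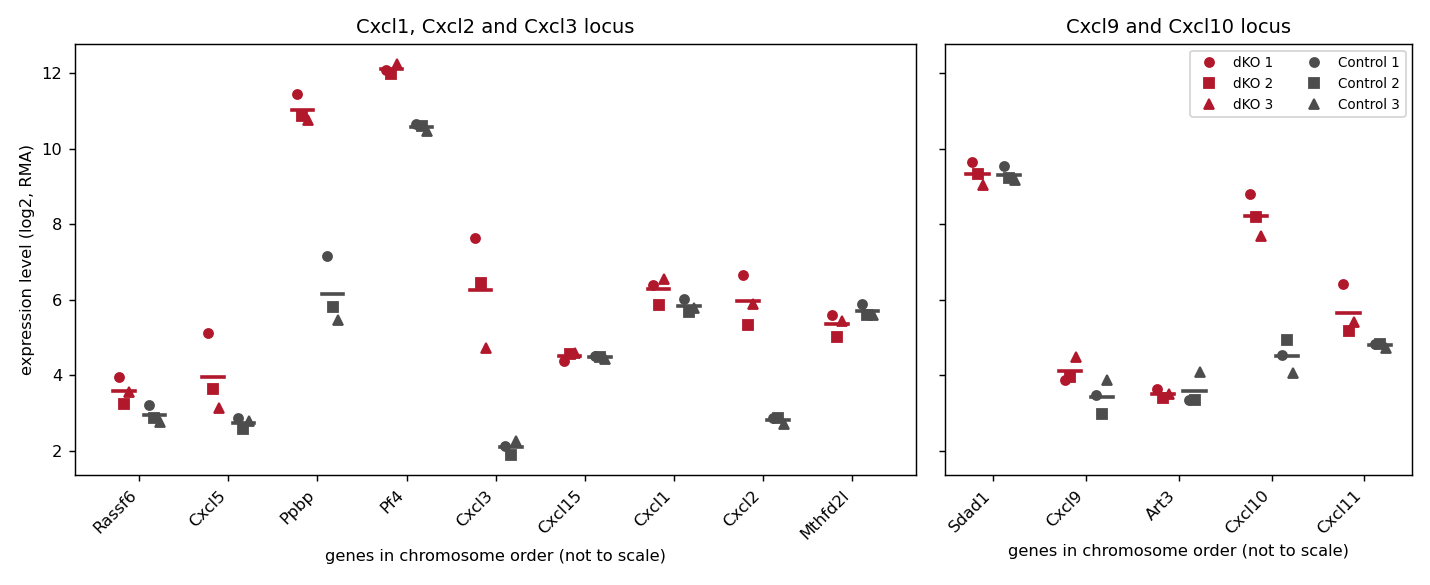
Log2 expression level (y axis) of the genes at the 2 chemokine loci of chromosome 5 (x axis, in chromosome order and not to scale) on each dKO array (red, left) and each control array (grey, right), with bars at the group means. Each gene is shown by its probe set with the highest mean. All dKO points are above all control points for Ppbp, Pf4, Cxcl3, Cxcl2, Cxcl10, Cxcl5, Cxcl11 and, narrowly, Rassf6 and Cxcl9. The groups overlap for Cxcl1, Cxcl15, Mthfd2l, Sdad1 and Art3.

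In the list of NF-κB subunits and feedback genes, 13 of 15 genes were measured, 5 were higher and 1 lower, with a median difference of 0.61, which was 0.38 without dKO 1 and 0.32 without dKO 1 and control 1 together. Bcl3, a nuclear partner of NF-κB, rose by 1.31 ± 0.18 (SE; limma, adjusted p = 0.00344) and Relb, a subunit of the non-canonical branch, by 1.19 ± 0.21 (adjusted p = 0.0115), and both kept their calls without each array in turn. Without dKO 1 and control 1 together the adjusted p of Relb was 0.0884. Tnfaip3, which encodes the feedback inhibitor A20, differed by 1.43 ± 0.30 (limma, adjusted p = 0.0232, and 0.0718 to 0.0869 without dKO 1, dKO 2, control 2 or control 3). The remaining higher genes, named after their values were seen, were the inhibitor Nfkbie at 0.88 (adjusted p = 0.035, and 0.0629 to 0.123 without each array in turn except control 2, and 0.257 at a difference of 0.52 without the _x_at and _s_at probe sets) and Nfkbiz, a nuclear cofactor that Il6 is known to need, at 0.996 (adjusted p = 0.0471, and 0.0966 to 0.170 without each array in turn except dKO 3). The kinase Ikbkb differed by -0.86 ± 0.19 (limma, adjusted p = 0.0301), and its call was lost without each array in turn (0.0526 to 0.134) and over the mean of its probe sets, where it differed by -0.42 (0.187). The count of higher genes was 2 to 4 without each array in turn, at 2 without dKO 1, dKO 2 or control 3.

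In the interferon list, 16 of 18 genes were measured, 3 were higher and 0 lower, with a median difference of 0.29. Both groups had received pI-pC. Ifng, which encodes interferon γ, the main inducer of Cxcl9, stood at 6.38 ± 0.79 in dKO and 4.13 ± 0.70 in control (SD, n = 3 each) and differed by 2.26 ± 0.43 (SE), or 4.77-fold (limma, adjusted p = 0.0156, and 0.0516 to 0.0611 without dKO 1, dKO 2 or control 3). Ifit1, an interferon-induced antiviral gene, rose by 1.55 ± 0.22 (SE; limma, adjusted p = 0.00344) and kept its call without each array in turn. Irf1, a transcription factor induced by interferon γ, differed by 0.79 ± 0.17 (limma, adjusted p = 0.0294, and 0.0607 to 0.111 without dKO 1, dKO 2 or any single control array). Ifngr2, a chain of the interferon γ receptor, differed by -0.84 ± 0.23 (limma, adjusted p = 0.0666, and 0.0453 without control 1). The count of higher genes was 1 without dKO 1, dKO 2 or control 3, and that of lower genes was 1 without control 1. At an unadjusted p under 0.05, limma had 5 higher and 3 lower.

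In the list of genes that control the decay and stability of cytokine mRNAs, 11 of 12 genes were measured. Limma called 0 higher and 0 lower, with 3 at an unadjusted p under 0.05, beside 3318 of all 18193 genes. The median difference was 0.09. It was -0.03 over the mean of all probe sets of a gene and 0.04 to 0.15 without each array in turn. Zc3h12a, the endonuclease regnase-1 that degrades Il6 mRNA, differed by 0.66 ± 0.20 (SE; limma, adjusted p = 0.0936), but by 0.15 on its other probe set. Zfp36, the tristetraprolin that degrades Tnf mRNA, differed by -0.38 ± 0.18 (limma, adjusted p = 0.324). Tia1, which holds back Tnf translation, differed by -0.57 ± 0.20 (limma, adjusted p = 0.15), and its 6 probe sets by -0.34 to -0.96. Rc3h2, a roquin that acts on cytokine mRNAs, differed by 0.47 ± 0.20 (limma, adjusted p = 0.243), but its 7 probe sets ranged from -0.21 to 0.56.

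**Figure D4:**
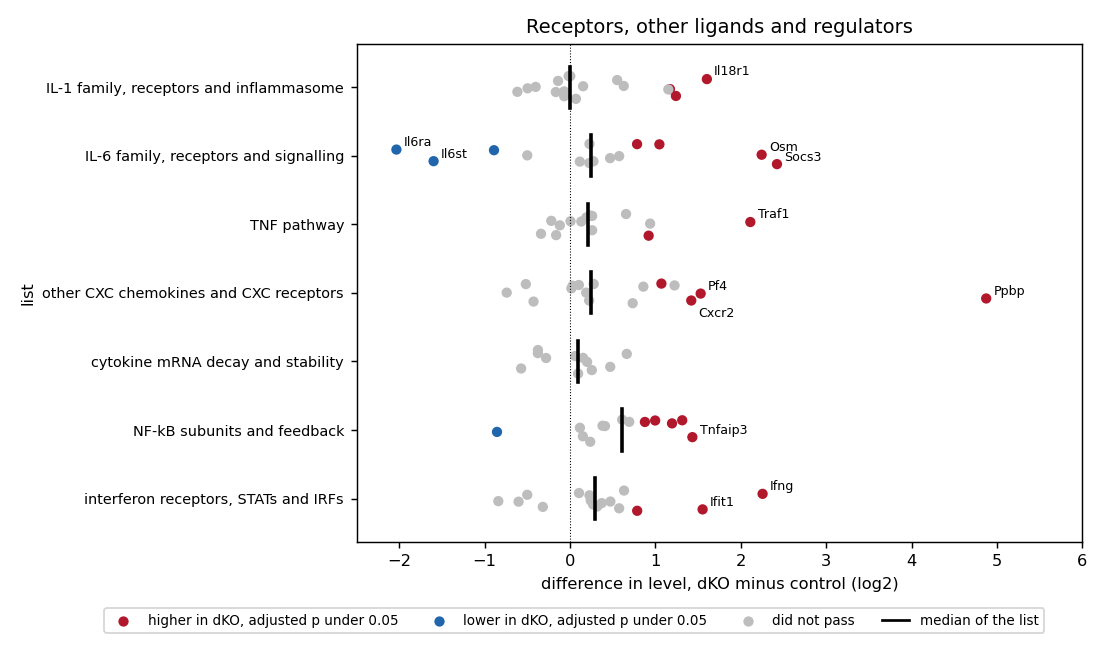
Difference in log2 level, dKO minus control (x axis), of each measured gene in the 7 lists (y axis; points are spread vertically for sight only), with a bar at the median of each list. Red points were higher and blue points lower in dKO at a limma adjusted p under 0.05, and grey points did not pass. Il6ra and Il6st lie at the left, at -2.04 and -1.60, and Ppbp is farthest to the right, at 4.87.

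The sort could hold other cells than progenitors, so marker lists were set beside the members. The T and NK cell list had a mean log2 level of 8.91 to 9.21 on the dKO arrays, against 6.61 to 7.40 on the control arrays, and 6 of its 9 measured genes were higher in dKO by the limma fit (Cd3d, Gzma, Gzmb, Il2rb, Ncr1 and Nkg7). The mast cell and basophil list stood at 7.01 to 7.96 on the dKO arrays, against 5.91 to 6.10 on the control arrays, with 4 of 8 genes higher (Cma1, Cpa3, Fcer1a and Mcpt8). The megakaryocyte and platelet list stood at 8.47 to 8.80 on the dKO arrays, against 7.21 to 7.35 on the control arrays. In it, 5 of 10 genes were higher (Itga2b, Itgb3, Pf4, Ppbp and Selp). At an unadjusted p under 0.05, limma had 6 of its genes higher and 1 lower. The lower gene was Treml1, at -0.61, with all dKO arrays below all control arrays. These 3 lists were higher on all dKO arrays than on any control array, and so were the erythroid and the endothelial and stromal lists given below.

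The monocyte and macrophage, neutrophil, and dendritic cell lists were not higher in dKO. The monocyte and macrophage list stood at 6.58 to 6.76 on the dKO arrays, against 7.09 to 7.40 on the control arrays, with 0 of 11 genes higher and 4 lower (Ccr2, Cd68, Csf1r and Lyz2). The neutrophil list stood at 5.12 to 6.09 on the dKO arrays, against 6.08 to 6.50 on the control arrays. None of its 8 genes passed by limma in either direction, with 2 lower at an unadjusted p under 0.05, beside 1662 of all 18193 genes. The dendritic cell list stood at 6.37 to 6.52 on the dKO arrays, against 7.05 to 7.38 on the control arrays, with 2 of 6 genes lower (Bst2 and Cd209a).

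Of the remaining lists, B cell markers stood at 5.63 to 5.88 on the dKO arrays, against 5.34 to 5.72 on the control arrays, with none of 5 genes passing, adjusted or not. Erythroid markers stood at 6.83 to 7.41 on the dKO arrays, against 6.17 to 6.40 on the control arrays, with Alas2 higher among 4 genes. Endothelial and stromal markers stood at 5.80 to 7.15 on the dKO arrays, against 5.37 to 5.65 on the control arrays, with Col1a2 higher and Cdh5 lower among 5 genes. Their highest array was dKO 1, as it also was for the megakaryocyte and platelet list and the erythroid list. Only Tpsab1 of the mast cell list and Hba-a1 of the erythroid list lay under the lower quartile on all arrays. The gate and progenitor list stood at 9.59 to 10.17 on the dKO arrays and 9.61 to 9.83 on the control arrays. The part of these cell types in the values of the members was not tested.

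**Figure D5:**
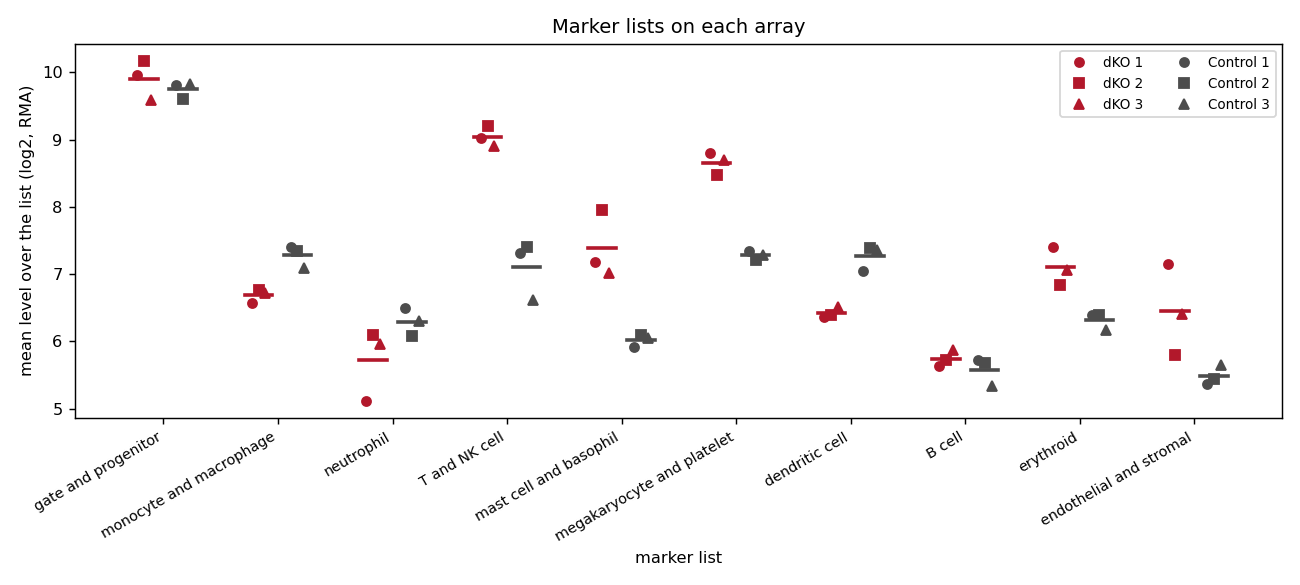
Mean log2 level (y axis) over the measured genes of each marker list (x axis) on each dKO array (red, left) and each control array (grey, right), with bars at the group means. T and NK cell, mast cell and basophil, megakaryocyte and platelet, erythroid, and endothelial and stromal lists are higher on all dKO arrays, and monocyte and macrophage and dendritic cell lists are lower on all of them. dKO 1 has the highest megakaryocyte and platelet, erythroid, and endothelial and stromal values.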

How the data were processed

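The deposited values are log2 expression levels that the authors made with RMA, as the submitters' processing notes name it. That method subtracts background, equalizes the arrays' distributions by quantiles and combines the probes of a set, and neither its version nor whether all 6 arrays went through it together is given in the sources used here. The arrays' distributions were not equal (lower quartiles 4.23 to 4.47). Per the labels' protocols, RNA was extracted with Trizol and amplified in 2 rounds. Of 45101 probe sets, 64 Affymetrix controls were left out. The platform annotation gave 34945 probe sets 1 symbol, 932 several and 9160 none. Symbols of 34741 were matched to RefSeq (GRCm38.p6) by gene identifier, and promoters came from the same release. Each gene was represented by its probe set with the highest mean, which gave 18193 genes.

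Groups came from the sample titles. R 4.3.3 with limma 3.58.1 (group as the only term, lmFit, eBayes, two-sided) was fitted to all genes with Benjamini-Hochberg adjustment at 0.05, and to all probe sets for the members' SE. Its steps were tested on simulated data. Each array is 1 pool of mice, so errors describe the spread between pools, and their number limits the precision. The members, the gene lists and the alternatives were chosen with earlier results of these data known. Genes named were all probe sets of the members, up to 4 genes with the smallest p in each list, ligand and receptor partners of members, neighbours at the chemokine loci, Myc and Mycn, and called markers. Listed genes without a probe set of a single symbol were not used here. Replicate numbers were checked for pairing, and deviations of same-numbered arrays correlated at -0.03 to 0.06, below the 0.1 needed, so the numbers were not taken as pairs. Alternatives covered the filter on dim genes, the probe set, the scaling, array weights, the variance model, the threshold, a replicate block and leaving out arrays. Figures were drawn with matplotlib 3.10.9.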

Additional observations from a re-analysis of the deposited data

How the results depend on the processing

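Calls were followed gene by gene for the named genes of the pathway lists and chemokine loci and for Myc and Mycn. None of these calls changed its direction in any setting run. Apart from Pf4 and Ppbp, the cell type markers were not followed in this way. Some values near 0 did change sign, among them the medians of the IL-1 list (-0.11 without control 1, -0.04 without dKO 3, -0.02 without both dKO 1 and control 1), the TNF list and the decay list, and the Cxcl9 probe set 1456907_at without dKO 3. Over all genes, the 567 higher and 519 lower genes became 256 and 181 at an adjusted p of 0.01, 303 and 275 without dKO 1 and control 1 together, and 331 to 617 higher and 236 to 464 lower without each array in turn. The lower genes were 819 at an adjusted p of 0.1 and 849 with array weights. Without dKO 1 and control 1 together, the IL-1 list had 1 higher gene, the IL-6 list 2, the TNF list 1, the interferon list 1 and the NF-κB list 1 higher and 0 lower, and the median difference of the TNF list was -0.08. Without each array in turn, the higher genes were 1 to 3 in the IL-1 list, 2 to 3 in the IL-6 list, 1 to 2 in the TNF list, 1 to 3 in the interferon list and 2 to 4 in the NF-κB list. The lower genes were 0 to 1 in the IL-1, interferon and other CXC lists, 1 to 3 in the IL-6 list and 0 to 0 in the NF-κB list. With dim genes filtered out, the IL-6 list had 2 higher genes, the TNF list 1 and the interferon list 2 lower. The median difference of the other CXC list was then 1.08, over the fewer genes kept. Array weights gave 2 lower genes in the interferon list and 1 in the other CXC list, and a trended, robust variance gave 1 lower gene in each. The mean of all probe sets gave 0 lower genes in the NF-κB list. The counts of the decay list were 0 in every setting run. Member probe sets without overlap were 10, against 9 after quantile normalization again and 10 to 11 without each array in turn. The cause of these changes was not tested, beyond the fewer arrays or genes that some settings hold. With the replicate block, the lower count of the NF-κB list was 0, since Ikbkb lost its call (adjusted p = 0.0580). Cxcr6 (0.0829), Irf1 (0.0588), Lifr (0.0578), Nfkbie (0.0660) and Stat3 (0.0610) also lost theirs, and Il18rap passed (0.0116). No other call of a gene followed in this way changed with the block.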
